A study of Mus musculus with 8 samples.

Results

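The T cell receptor (TCR) complex and the kinases next to it were followed across donor CD4+ T cells as 10 genes of the deposited expression table: *Trac*, *Trbc1*, *Trbc2*, *Cd3g*, *Cd3d*, *Cd3e*, *Cd247*, *Cd4*, *Lck* and *Zap70*. They were chosen by gene symbol, as the receptor chains, their signaling partners, the coreceptor and the first 2 kinases. The choice was made with earlier results of these data known. Each of the 10 matched 1 of 12417 entries, and all 10 were among the 10238 genes that averaged 1 TPM (a share of a library corrected for gene length) or more and were tested.

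RNA-Seq was performed on splenic donor CD4+ T cells of both genotypes on d5 after allogeneic hematopoietic cell transplantation (alloHCT). ST2fl/fl cells were from CD45.2+ B6 mice carrying CD4-Cre, R26-LSL-YFP and St2fl/fl, in which Cre, driven by *Cd4* regulatory sequences, deletes part of *Il1rl1*, the gene of the IL-33 receptor ST2, in T cells and turns on a YFP reporter. ST2WT cells were from B6 CD45.1+ St2+/+ mice and carried neither transgene. Mice were 6 to 10 weeks old, and cells of both genotypes were cotransferred with T cell-depleted B6 bone marrow into the same irradiated BALB/c recipients, an MHC-mismatched host in which donor T cells respond to host antigens. Each of 4 recipients gave 1 ST2fl/fl and 1 ST2WT library, 8 in all, where libraries with the same number were taken as 1 recipient. The cells had been gated on CD3 and CD4 protein, so the presence of these transcripts was fixed by the sort. ST2WT cells were sorted as CD45.1+ and YFP-negative, and ST2fl/fl cells as CD45.2+ and YFP-positive. The genotypes thus differed in CD45 allele, transgenes and sort gate as well as in ST2, and these cannot be told apart.

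The αβ TCR binds peptide on MHC but has no signaling tail of its own. It is assembled with the CD3γ, CD3δ and CD3ε chains and with a homodimer of the ζ chain, encoded by *Cd247*, all of which carry the tyrosine motifs known as ITAMs. CD4 binds MHC class II and holds Lck at the membrane, Lck phosphorylates the ITAMs, and ZAP-70 docks on them and passes the signal to the adaptors LAT and SLP-76.

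The TPM of a library summed to 999334 to 999527, and they keep no read total, so that depth and counting error are unknown. *Il1rl1* was at 15.8, 14.9, 16.7 and 17.7 TPM in the ST2fl/fl libraries of recipients 1 to 4, and at 18.6, 14.6, 21.3 and 18.2 TPM in the ST2WT libraries. The groups overlapped (limma log2 fold change -0.14, SE 0.12, adjusted p = 0.608), and a value for the whole gene, which can include exons outside the deleted part, checks no genotype label. The ST2WT library of recipient 2 stood apart from the rest. Each library was set against the mean of the others of its genotype over the genes tested. Deviations of this one had an SD of 0.465 on the log2 scale, against 0.242 to 0.279 in the other 7 libraries. Of its TPM, 9.18% were from mitochondrially encoded genes, against 12.7% to 13.8%. It was the highest or the lowest of the 4 ST2WT libraries at all 10 genes of the complex, so results are given with and without it where it matters.

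The complex was transcribed at a high level in both genotypes. Summed over the 10 genes, it made up 1.49%, 1.48%, 1.49% and 1.48% of all TPM in the ST2fl/fl libraries of recipients 1 to 4, against 1.34%, 1.36%, 1.28% and 1.32% in the ST2WT libraries. Every ST2fl/fl library lay above every ST2WT library. Of the 10 genes, *Cd3g* was higher in ST2fl/fl cells past an adjusted p of 0.05, at 1.25-fold, and 0 passed both that limit and a fold change of 1.5, which the study used together. All 10 log2 fold changes were positive, at 0.04 to 0.40 with a median of 0.17, against a median of 0.01 over all 10238 genes. In bulk RNA, fewer cells of a type and less RNA per cell cannot be told apart, and TPM are shares of a library rather than amounts per cell.

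**Figure D1:**
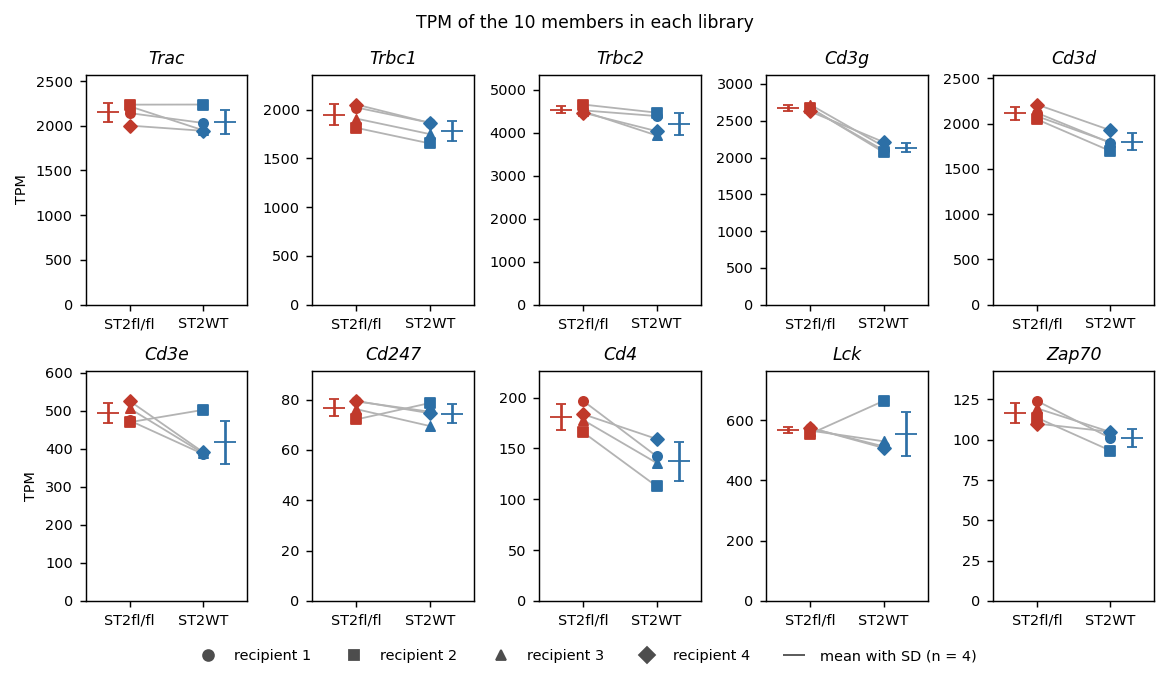
TPM of the 10 genes in each library, with ST2fl/fl at left and ST2WT at right in every panel, a gray line joining the 2 libraries of a recipient, marker shape giving the recipient, and the bars beside them the mean with SD (n = 4); each vertical axis starts at 0 and has its own scale. The genotypes are separate at *Cd3g*, *Cd3d*, *Cd4* and *Zap70*, and the ST2WT square of recipient 2 lies apart above the other ST2WT markers for *Cd3e* (502 TPM) and *Lck* (664 TPM).

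The receptor chains were read first, through their constant segments, which do not depend on the variable segments of a clone. *Trac*, the α chain constant region, lies on chromosome 14 of GRCm38 from 54220521 to 54224206. It was at 2143, 2237, 2219 and 2003 TPM in the ST2fl/fl libraries of recipients 1 to 4, against 2032, 2238, 1950.4 and 1944 TPM in the ST2WT libraries. The 2 ranges overlapped almost whole (log2 fold change 0.08, 95% interval -0.06 to 0.21, adjusted p = 0.579 from limma; 0.12, adjusted p = 0.210 without the ST2WT library of recipient 2).

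The β chain constant region has 2 copies on chromosome 6, *Trbc1* from 41538218 to 41539881 and *Trbc2* from 41546730 to 41548352, both on the plus strand and 6849 bases apart. Their GENCODE M21 coding parts are each 518 bases long and identical at 495 of them (95.56%), with 1 of the 23 differences in the first exon of 375 bases and a longest shared run of 259 bases. Reads from the first exon can therefore fit both copies, and how such reads were divided is not given in the sources used here, so each copy's own level is uncertain and their sum is firmer. The third coding exon, which encodes much of the transmembrane segment, holds 15 of the differences and is shown because it is where the copies can best be told apart, with the differing bases in capitals. It spans 41539229 to 41539335 in *Trbc1* and 41547772 to 41547878 in *Trbc2*.
Trbc1: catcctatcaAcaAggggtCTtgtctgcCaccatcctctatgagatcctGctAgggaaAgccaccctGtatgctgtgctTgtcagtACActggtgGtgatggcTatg
Trbc2: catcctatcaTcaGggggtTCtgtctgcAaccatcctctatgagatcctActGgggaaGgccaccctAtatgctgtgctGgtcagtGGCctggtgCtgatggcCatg

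*Trbc2* had the highest level of the complex, with 4522, 4659, 4499.7 and 4469 TPM in ST2fl/fl libraries of recipients 1 to 4, against 4390.1, 4469.7, 3938 and 4038 TPM in ST2WT libraries. *Trbc1* was at 2023, 1814, 1909 and 2054 TPM in ST2fl/fl libraries, against 1867, 1654, 1750.4 and 1865 TPM in ST2WT libraries. In both copies the ST2fl/fl library was the higher one in all 4 recipients, but the group ranges overlapped, and neither difference passed limma's test (*Trbc1* log2 fold change 0.13, adjusted p = 0.383; *Trbc2* 0.11, adjusted p = 0.376). The share of *Trbc1* in the summed TPM of both was 30.1% ± 1.52 in ST2fl/fl cells and 29.8% ± 1.99 in ST2WT cells (SD, n = 4 each). Both libraries of recipient 2 had the lowest share of their group, 28.03% in ST2fl/fl and 27.0% in ST2WT cells, and both of recipient 4 the highest, 31.5% in ST2fl/fl and 31.6% in ST2WT cells. The genotypes were not told apart (difference 0.25 percentage points, two-sided exact permutation p = 0.8286 over 70 labelings, adjusted p = 0.943).

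Of the CD3 chains, those encoded side by side on chromosome 9 all had higher means in ST2fl/fl cells. *Cd3g*, for CD3γ, runs on the minus strand from 44969572 to 44980431, and *Cd3d*, for CD3δ, on the plus strand from 44981786 to 44987339, so that the 2 genes start 1355 bases apart and point away from each other. *Cd3e*, for CD3ε, lies from 44998740 to 45009627 on the minus strand. *Cd247* is on chromosome 1, from 165788681 to 165877277. The 250 bases before each RefSeq start (build GRCm38.p6) are printed because these 4 genes are made into 1 complex while their levels and differences were unequal. Capitals mark CANNTG, the E-box bound by E proteins such as E2A, and AGATAA, a motif bound by factors such as GATA-3, on either strand. The *Cd3g* stretch is chr9:44980432-44980681 on the minus strand, that of *Cd3d* chr9:44981536-44981785 on the plus strand, that of *Cd3e* chr9:45009612-45009861 on the minus strand, and that of *Cd247* chr1:165788431-165788680 on the plus strand.
Cd3g: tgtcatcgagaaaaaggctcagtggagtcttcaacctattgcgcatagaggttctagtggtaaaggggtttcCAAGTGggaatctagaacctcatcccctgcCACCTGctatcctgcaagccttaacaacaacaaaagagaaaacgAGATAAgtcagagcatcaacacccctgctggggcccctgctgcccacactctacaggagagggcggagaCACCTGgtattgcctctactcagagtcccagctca
Cd3d: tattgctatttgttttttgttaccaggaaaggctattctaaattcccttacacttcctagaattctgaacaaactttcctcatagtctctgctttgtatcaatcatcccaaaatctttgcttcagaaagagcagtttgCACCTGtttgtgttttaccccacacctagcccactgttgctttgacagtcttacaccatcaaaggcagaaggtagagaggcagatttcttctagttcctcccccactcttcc
Cd3e: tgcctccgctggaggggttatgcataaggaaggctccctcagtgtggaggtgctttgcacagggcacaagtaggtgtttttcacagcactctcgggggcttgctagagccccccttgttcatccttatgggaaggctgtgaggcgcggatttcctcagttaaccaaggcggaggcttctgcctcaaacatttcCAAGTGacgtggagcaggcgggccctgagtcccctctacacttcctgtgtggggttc
Cd247: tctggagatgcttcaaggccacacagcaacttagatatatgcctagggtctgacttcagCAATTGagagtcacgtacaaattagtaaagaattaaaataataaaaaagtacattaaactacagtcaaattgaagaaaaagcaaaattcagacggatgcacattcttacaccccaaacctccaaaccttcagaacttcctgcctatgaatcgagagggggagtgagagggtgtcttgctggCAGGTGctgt

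CANNTG was found 3 times before *Cd3g*, 2 times before *Cd247*, and once each before *Cd3d* and *Cd3e*, and 66.2% of 32851 RefSeq promoters of that length hold it. AGATAA was found once, before *Cd3g*, and in 9.99% of all promoters. The ETS core GGAA, left in lower case, was matched on either strand in all 4 (2 times before *Cd3g*, 6 before *Cd3d*, 5 before *Cd3e* and once before *Cd247*) and in 93.4% of promoters. The Runx motif TGTGGT, present in 14% of promoters, and TATAAA, present in 12.4%, had no match in these 4 stretches. These are matches of letters, not measured binding. Of the other members, *Lck* and *Zap70* have RefSeq entries in the table used, and *Trac*, *Trbc1*, *Trbc2* and *Cd4* were not matched.

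*Cd3g* was at 2669.8, 2678, 2721 and 2627 TPM in the ST2fl/fl libraries of recipients 1 to 4, against 2098, 2073, 2151 and 2211 TPM in the ST2WT libraries. The groups were far apart for their spread, with coefficients of variation of 1.44% in ST2fl/fl and 2.86% in ST2WT cells and a gap from 2627 TPM, the lowest ST2fl/fl value, to 2211 TPM, the highest ST2WT value. The log2 fold change was 0.33 (SE 0.05, 95% interval 0.22 to 0.43, 1.25-fold, adjusted p = 0.0106 from limma), and it was positive in 4 of 4 recipients, at 0.25 to 0.37. It did not pass the fold limit of 1.5, which lies above the whole interval of 1.17- to 1.35-fold. The call on p alone was lost when the variance was not allowed to follow expression (adjusted p = 0.147), without the ST2fl/fl library of recipient 1 (0.0547) and without that of recipient 3 (0.0654), while the log2 fold change stayed at 0.32 to 0.33 in these settings. It was also lost in the paired fit without recipient 1 (0.167), recipient 3 (0.0886) or recipient 4 (0.0816).

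*Cd3d* was at 2117, 2046, 2081 and 2209.5 TPM in ST2fl/fl libraries of recipients 1 to 4, against 1787, 1696, 1790.4 and 1925 TPM in ST2WT libraries. The groups did not overlap, and the difference had nearly the same size in each recipient, 0.20 to 0.27 on the log2 scale. The log2 fold change of 0.23 (SE 0.06, 95% interval 0.11 to 0.36) had an adjusted p of 0.106 from limma, 0.0487 with the recipient as a block, and 0.0434 without the ST2WT library of recipient 2.

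*Cd3e* was at 474, 469.5, 506 and 525 TPM in ST2fl/fl libraries of recipients 1 to 4, against 386, 502, 388 and 391 TPM in ST2WT libraries. Here 3 ST2WT libraries lay close to each other (386 to 391 TPM) and below all ST2fl/fl values, and that of recipient 2 lay among the ST2fl/fl values. With all 8 libraries the log2 fold change was 0.25 (SE 0.09, 95% interval 0.04 to 0.46, adjusted p = 0.277 from limma), and without the ST2WT library of recipient 2 it was 0.34 (adjusted p = 0.0130). In GENCODE an antisense gene, *Gm48719*, shares exonic sequence with *Cd3e*, and whether counting used strand is not given in the sources used here.

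*Cd247*, which encodes the ζ chain with the most ITAMs of the complex, had the lowest level of the 10 genes. It was at 79.3, 72.1, 76.2 and 79.5 TPM in ST2fl/fl libraries of recipients 1 to 4, against 75.2, 78.7, 69.5 and 74.6 TPM in ST2WT libraries. The ranges lay over each other (log2 fold change 0.04, 95% interval -0.14 to 0.22, adjusted p = 0.823 from limma). Exons of *Pou2f1* on the other strand overlap those of *Cd247*.

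**Figure D2:**
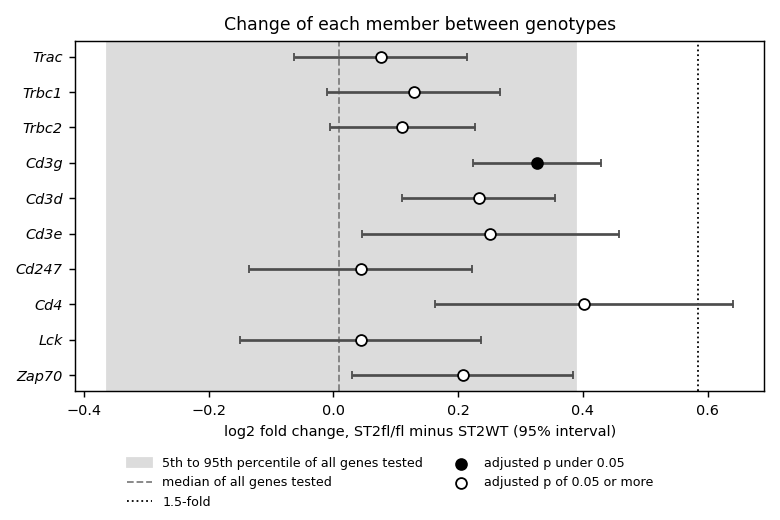
Log2 fold change of each gene, ST2fl/fl minus ST2WT on log2(TPM + 1), as points with 95% intervals from limma over 8 libraries; the gray band spans the 5th to 95th percentile of all 10238 genes (-0.36 to 0.39), the dashed line is their median (0.01) and the dotted line a 1.5-fold change. All 10 points lie right of the dashed line, the filled point, *Cd3g*, is the one past an adjusted p of 0.05, and *Cd4* at 0.40 lies just outside the band.

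*Cd4*, the coreceptor gene, lies on chromosome 6 from 124864692 to 124888221 on the minus strand. It was at 197, 166, 178 and 184 TPM in ST2fl/fl libraries of recipients 1 to 4, against 142, 113, 136 and 159 TPM in ST2WT libraries. The groups did not overlap, with 166 TPM the lowest ST2fl/fl and 159 TPM the highest ST2WT value. *Cd4* had the largest fold change of the 10 genes (log2 fold change 0.40, SE 0.11, 95% interval 0.16 to 0.64, 1.32-fold). The spread between libraries was wide, and the adjusted p from limma was 0.151, or 0.0543 with the recipient as a block. Within recipients the difference was positive in 4 of 4, at 0.20 to 0.55 on the log2 scale. The ST2fl/fl donors alone carry a Cre transgene built on *Cd4* regulatory sequences, and their cells alone were sorted as YFP-positive. A difference by ST2, by transgene or by sort gate therefore cannot be told apart at this gene.

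*Lck*, the kinase held by CD4, lies on chromosome 4 from 129548344 to 129573641. It was at 574, 555, 566 and 575 TPM in ST2fl/fl libraries of recipients 1 to 4, against 513, 664, 530.2 and 508 TPM in ST2WT libraries. As with *Cd3e*, 3 ST2WT libraries lay below all ST2fl/fl values, and that of recipient 2 lay above all of them. The log2 fold change was 0.04 (SE 0.09, 95% interval -0.15 to 0.24, adjusted p = 0.838 from limma), and without the ST2WT library of recipient 2 it was 0.13 (adjusted p = 0.143).

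*Zap70*, the kinase that docks on the ITAMs, lies on chromosome 1 from 36761798 to 36782818. It was at 124, 114, 119.5 and 110.0 TPM in ST2fl/fl libraries of recipients 1 to 4, against 101, 93.3, 105 and 105 TPM in ST2WT libraries. The groups did not overlap, and the gap from the lowest ST2fl/fl to the highest ST2WT library, both of recipient 4, was narrow. The log2 fold change was 0.21 (SE 0.08, 95% interval 0.03 to 0.38, adjusted p = 0.296 from limma). *Zap70* and *Cd247* share chromosome 1 with *Ptprc*, the gene of the CD45 allele that marks the donors, at distances of 101.28 and 27.61 Mb. Distances of the members to *Il1rl1*, the targeted gene, were not measured, so linkage to that locus was not examined.

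Counted over the complex, 5 of 10 genes were higher in ST2fl/fl cells at an unadjusted p under 0.05 (*Cd3g*, *Cd3d*, *Cd3e*, *Cd4* and *Zap70*) and 0 were lower, against 7.11% higher and 6.8% lower of all genes tested. Every ST2fl/fl library was above every ST2WT library at 4 of 10 (*Cd3g*, *Cd3d*, *Cd4* and *Zap70*), against 5.45% of all genes. At 6 of 10, these 4 with *Trbc1* and *Trbc2*, the ST2fl/fl library was higher in all 4 recipients, against 16.7% of all genes. Past an adjusted p of 0.05 alone there was 1 of 10, against 0.332% of all genes higher in ST2fl/fl cells, and with the recipient as a block 2 of 10 (*Cd3g* and *Cd3d*), against 0.752%. Without the ST2WT library of recipient 2 there were 3 of 10 (*Cd3g*, *Cd3d* and *Cd3e*), against 1.34%. With the fold limit added there were 0 of 10 in every setting tried, against 0.273% higher and 0.244% lower of all genes in the fit of 8 libraries. These 10 genes come from the same libraries and are not independent counts. They were also chosen with earlier results of these data known, so the shares over all genes are no unbiased measure for them.

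Within recipients, 36 of the 40 differences between the ST2fl/fl and the ST2WT library were positive. The 4 negative ones, at *Cd3e*, *Cd247*, *Lck* and, by a margin close to 0, *Trac*, were all in recipient 2. The median difference of the 10 genes was 0.20 in recipient 1, 0.10 in recipient 2, 0.19 in recipient 3 and 0.16 in recipient 4. Recipient 2 thus had both the largest positive differences at *Cd4* (0.55), *Cd3g* (0.37) and *Cd3d* (0.27) and the lowest ones at *Lck* (-0.26), *Cd247* (-0.12) and *Cd3e* (-0.10).

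**Figure D3:**
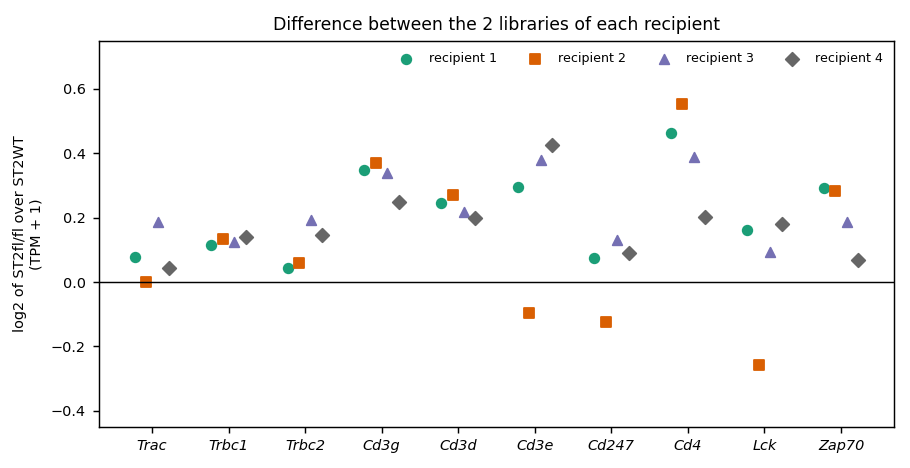
Difference between the ST2fl/fl and the ST2WT library of each recipient, as log2 of the ratio of TPM + 1, for the 10 genes, with 1 marker per recipient and a line at 0. All markers of recipients 1, 3 and 4 lie above the line, while those of recipient 2 run from -0.26 at *Lck* to 0.55 at *Cd4*.

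TPM are per length, so they can be set in order between genes, as far as reads were counted alike for each. How reads shared by *Trbc1* and *Trbc2* were divided is not known. Nor is it known whether strand was used at *Cd3e* and *Cd247*, which overlap other genes. In ST2fl/fl cells the order was *Trbc2* (4537 ± 83.8 TPM), *Cd3g* (2674 ± 38.4), *Trac* (2150.15 ± 107), *Cd3d* (2113.5 ± 70.3), *Trbc1* (1950.3 ± 110), *Lck* (567 ± 9.53), *Cd3e* (494 ± 26.6), *Cd4* (181 ± 12.8), *Zap70* (117 ± 6.22) and *Cd247* (76.8 ± 3.45; SD, n = 4), and the order of means was the same in ST2WT cells. Neighbors overlapped in range at *Trac* and *Cd3d* and at *Cd3d* and *Trbc1* in ST2fl/fl cells, and at *Cd3g* and *Trac* and at *Cd3d* and *Trbc1* in ST2WT cells. All other neighbors in the order of a group were separate. In the ranking of all 12417 entries by mean TPM, *Trbc2* stood at place 26 and *Cd247* at place 1460. The CD3 chains that sit together in each receptor had very unequal TPM, under the same limits. *Cd3g* stood 5.42-fold above *Cd3e* in ST2fl/fl cells and 5.15-fold in ST2WT cells. *Cd3e* stood 6.43-fold above *Cd247* in ST2fl/fl cells and 5.57-fold in ST2WT cells.

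Ratios within a library do not depend on how it was scaled, and 7 were compared between genotypes with two-sided exact permutation tests over 70 labelings. The smallest p these allow is 0.0286, which for 1 ratio alone becomes 0.200 when adjusted over 7, so a single ratio could not pass. *Cd247* relative to *Cd3e* had log2 ratios of -2.58, -2.70, -2.73 and -2.72 in ST2fl/fl libraries of recipients 1 to 4, against -2.36, -2.67, -2.48 and -2.39 in ST2WT libraries. It was lower in ST2fl/fl cells in 4 of 4 recipients, with 1 ST2WT library, that of recipient 2, inside the ST2fl/fl range (difference -0.21, exact permutation p = 0.0571, adjusted p = 0.400). *Zap70* relative to *Lck* was higher in ST2fl/fl cells in 3 of 4 recipients (difference 0.17, exact permutation p = 0.257, adjusted p = 0.90), with the ST2WT library of recipient 2 far below the rest at -2.83, against -2.34 to -2.27 in the other ST2WT libraries. Without it the difference was 0.038. The differences in the log2 ratios of *Cd3d* to *Cd3e* (-0.02), *Cd3g* to *Cd3e* (0.07), *Cd4* to *Cd3e* (0.15) and *Trac* to the sum of *Trbc1* and *Trbc2* (-0.04) had exact permutation p of 0.600 to 0.943 and an adjusted p of 0.943 each. Those of *Cd3g* and *Cd4* to *Cd3e* turned to -0.032 each without the ST2WT library of recipient 2.

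**Figure D4:**
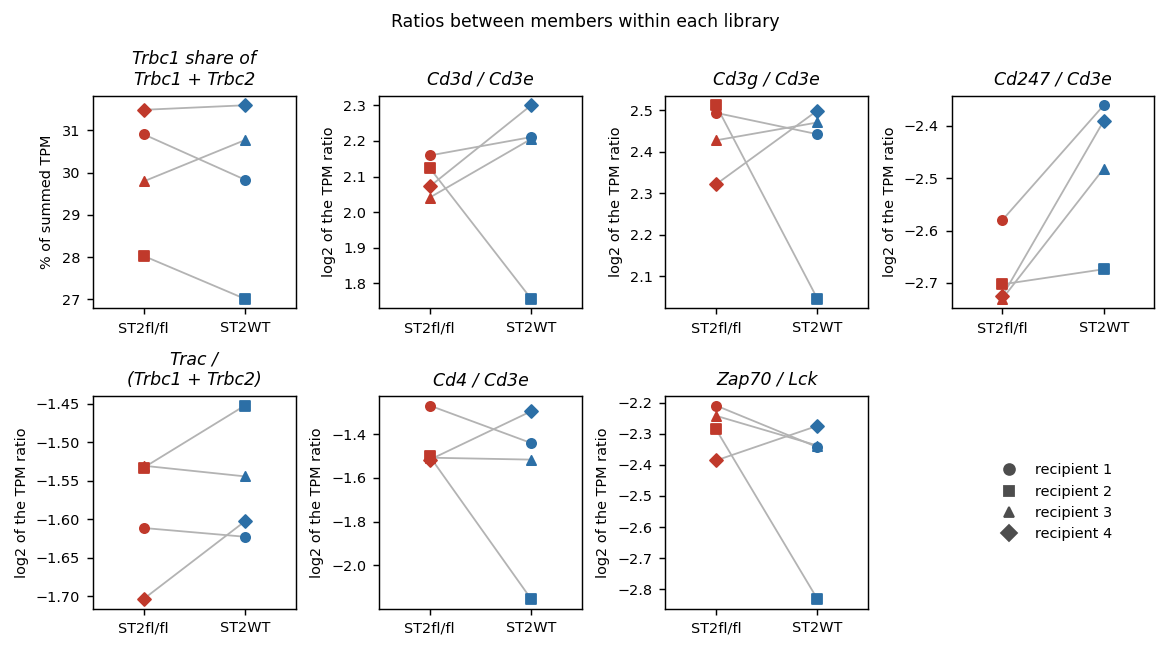
The 7 ratios within each library, as a percent of summed TPM for *Trbc1* and as log2 of the TPM ratio for the others, with ST2fl/fl at left, ST2WT at right and a gray line joining the libraries of a recipient; the vertical axes do not start at 0. *Cd247* to *Cd3e* is the ratio that moves the same way in all 4 recipients, and the ST2WT square of recipient 2 lies lowest for *Cd3d*, *Cd3g* and *Cd4* to *Cd3e* and for *Zap70* to *Lck*.

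Genes whose pattern over the 8 libraries was most like that of the CD3 chains were sought among 7164 other genes that averaged 5 TPM or more, by Pearson's r with the mean centered log2(TPM + 1) of *Cd3d*, *Cd3e*, *Cd3g* and *Cd247*. They were *Map1lc3b* (r = 0.98), which encodes the autophagosome protein LC3B, *Lilrb4a* (0.97), an inhibitory receptor, *Npc2* (0.97), a lysosomal cholesterol carrier, *Leprotl1* (0.97) and *Cd96* (0.96), a receptor of T and NK cells. The values describe 8 libraries that share genotype and recipient. The CD3 mean was itself split by genotype, at 0.056 to 0.152 in ST2fl/fl libraries and -0.153 to -0.049 in ST2WT libraries, so r also reflects a difference between genotypes. *Lilrb4a* was at 344 ± 19.0 TPM in ST2fl/fl cells and 183 ± 30.1 TPM in ST2WT cells, and *Cd96* at 132 ± 11.9 TPM in ST2fl/fl cells and 103 ± 6.04 TPM in ST2WT cells (SD, n = 4 each). By Spearman's rho, 9 genes tied at the highest value of 0.98, and *Map1lc3b*, *Leprotl1* and *Cd96* were among them. *Cd247*, though part of the CD3 mean, had an r of 0.59 with it (rho 0.74). Of the other genes of the complex, *Cd4* had the highest r with this pattern (0.74, rho 0.79). *Trac* had 0.47 (rho 0.33), and *Lck* had 0.39, with a rho of 0.64 that equaled that of *Trbc2* (r = 0.70).

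The genes around the complex were read from 5 lists, 71 genes in all, of which 69 had a line in the table and were tested. These lists, too, were chosen with earlier results of these data known, which limits any comparison with the shares over all genes. Past the adjusted p from limma there were 0 of 69 in either direction, with the recipient as a block also 0, and at an unadjusted p under 0.05 there were 13 higher and 0 lower in ST2fl/fl cells, against 7.11% higher and 6.8% lower of all genes. The median log2 fold change of the 69 was 0.10, with 49 positive and 20 negative, against a median of 0.01 and 51.7% positive over all genes. All 6 proximal kinases tested had positive values (median 0.17), with 1 at an unadjusted p under 0.05. This was *Fyn*, the Src-family kinase that acts beside Lck, with 73.7 ± 2.29 TPM in ST2fl/fl cells and 57.5 ± 13.02 TPM in ST2WT cells (SD, n = 4 each; log2 fold change 0.38, adjusted p = 0.317), where the ST2WT value of recipient 2 was 38.2 TPM. Without that library the log2 fold change of *Fyn* was 0.20 (adjusted p = 0.135 from limma). *Prkcq*, for protein kinase C θ (0.18, adjusted p = 0.363), and *Txk*, a Tec-family kinase (0.23, adjusted p = 0.389), came next.

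The counts at an unadjusted p under 0.05 that follow stand against the 7.11% of all genes that were higher. Of 26 adaptors and effectors, 6 were higher at that p (median 0.09). *Plcg1*, the phospholipase that makes the calcium and diacylglycerol signals, had 8.28 ± 0.544 TPM in ST2fl/fl cells and 5.69 ± 1.24 TPM in ST2WT cells (log2 fold change 0.49, adjusted p = 0.202 from limma). *Malt1*, the protease of the NF-κB branch (0.42, adjusted p = 0.204), and *Lax1*, a negative adaptor (0.34, adjusted p = 0.227), were the others with the smallest p. Of 17 phosphatases and inhibitors, 4 were higher at an unadjusted p under 0.05 (median 0.07). *Sla*, for the adaptor SLAP, which in mouse thymocytes lowers the TCR on the surface, had 78.2 ± 3.08 TPM in ST2fl/fl cells and 60.5 ± 7.19 TPM in ST2WT cells (0.37, adjusted p = 0.155). *Ptprc*, for CD45, the phosphatase that keeps Lck ready, had 379 ± 18.7 TPM in ST2fl/fl cells and 302 ± 42.1 TPM in ST2WT cells (0.34, adjusted p = 0.196). The donors carry different alleles of this gene, CD45.2 and CD45.1, and whether the allele bears on its values was not tested. *Cblb*, a ubiquitin ligase that restrains signaling, had 13.5 ± 1.70 TPM in ST2fl/fl cells and 9.70 ± 1.69 TPM in ST2WT cells (0.45, adjusted p = 0.228; SD, n = 4 each).

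Of 15 transcription factors of the T lineage, 1, *Tox*, was higher at an unadjusted p under 0.05, a share near the 7.11% of all genes (median 0.15; *Tox* 0.27, adjusted p = 0.309 from limma), followed by *Tcf7* (0.23, adjusted p = 0.362) and *Tcf3*, which encodes E2A (0.29, adjusted p = 0.369). Of 5 surface partners, 1, the costimulatory receptor *Cd28*, was higher at an unadjusted p under 0.05 (median 0.16), with 176 ± 12.2 TPM in ST2fl/fl cells and 151 ± 6.26 TPM in ST2WT cells (0.22, adjusted p = 0.263; SD, n = 4 each). *Thy1* (0.40, adjusted p = 0.374) and *Cd2* (0.16, adjusted p = 0.408) came next. *Thy1* was at 203 TPM in the ST2WT library of recipient 2, and without that library its log2 fold change was 0.17 (adjusted p = 0.292 from limma). Without the ST2WT library of recipient 3, that of *Cd2* was 0.09 (adjusted p = 0.566). The ST2WT library of recipient 2 was the lowest of its group at 10 of the 15 genes named from these lists and the highest at 3. Those 15 were named by smallest p, and over all 69 list genes this library was the lowest at 38 and the highest at 24. Without it, *Sla* passed the adjusted p (0.29, adjusted p = 0.0473).

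**Figure D5:**
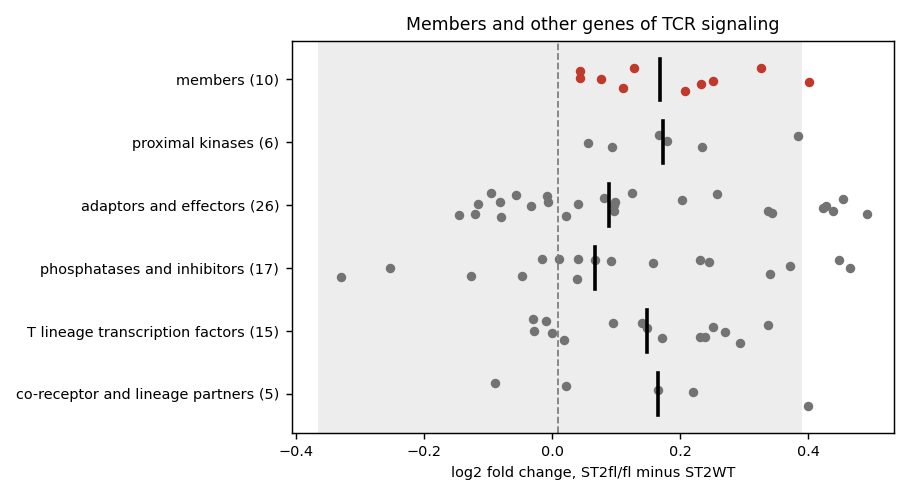
Log2 fold change, ST2fl/fl minus ST2WT, of each gene of the complex (red) and of the 5 lists around it (gray), 1 point per gene with the number tested in brackets; black bars are medians, the gray band the 5th to 95th percentile of all genes and the dashed line their median. The points of the complex and of the proximal kinases all lie above 0 (medians 0.17 and 0.17), and those of the other lists lie on both sides.

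Markers of other cell types were summed in each library. The cells had passed a negative depletion and a gate on CD3 and CD4 protein, which should remove B, myeloid, dendritic and erythroid cells. Of 6 γδ T cell markers, 4 had a line in the table: *Trdc*, *Tcrg-C1*, *Tcrg-C2* and *Tcrg-C4*. Their sum was 61.5 to 108 TPM in ST2fl/fl libraries and 27.5 to 71.6 TPM in ST2WT libraries. *Tcrg-C1* was the most abundant (42.1 ± 12.7 TPM in ST2fl/fl and 30.2 ± 19.4 TPM in ST2WT cells). Whether this sum follows the number of γδ T cells was not tested. Of 8 B cell markers, 5 had a line, and *Cd79a* and *Ms4a1* were not among them. Their sum was 196 to 267 TPM in ST2fl/fl libraries and 289 to 298 TPM in ST2WT libraries, most of it *Ighm* (215 ± 27.4 TPM in ST2fl/fl and 266 ± 8.27 TPM in ST2WT cells). The 1 CD8 T cell marker with a line, *Cd8b1*, was at 10.5 to 14.2 TPM in ST2fl/fl libraries and 12.4 to 13.5 TPM in ST2WT libraries. The 3 myeloid markers with a line summed to 41.9 to 59.8 TPM in ST2fl/fl and 29.9 to 44.9 TPM in ST2WT libraries, the most abundant being *Fcer1g* (33.4 ± 7.67 TPM in ST2fl/fl and 25.3 ± 5.78 TPM in ST2WT cells). The 3 dendritic cell markers summed to 5.0004 to 7.64 TPM in ST2fl/fl and 4.97 to 6.49 TPM in ST2WT libraries, with *Xcr1* the most abundant (5.04 ± 0.950 TPM in ST2fl/fl and 4.51 ± 0.464 TPM in ST2WT cells). The 2 erythroid markers, chiefly *Hba-a1*, summed to 2.08 to 3.33 TPM in ST2fl/fl and 3.01 to 5.67 TPM in ST2WT libraries. The 3 NK cell markers with a line summed to 6029 to 6406 TPM in ST2fl/fl and 5325 to 6765 TPM in ST2WT libraries, nearly all of it *Nkg7*, which activated T cells also express (6152 ± 157 TPM in ST2fl/fl and 5706 ± 647 TPM in ST2WT cells; SD, n = 4). By limma 0 genes of these lists were called. At an unadjusted p under 0.05 there were 2 higher γδ T cell markers and 2 lower B cell markers in ST2fl/fl cells. Over all genes tested, 7.11% were higher and 6.8% lower at that p. The table holds only genes above 0 in all 8 libraries, and *Cd8a*, *Lyz2*, *Csf1r*, *Itgam*, *Adgre1*, *Cd14*, *Ncr1*, *Flt3* and *Siglech* also had no line in it. The B cell sums were thus lower, without overlap, in the libraries where the receptor genes were higher. Sums of the other lists overlapped, with those of γδ T cell and myeloid markers ranging higher in ST2fl/fl libraries. The part of any of these in the differences was not tested.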

How the data were processed

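Donor CD4+ T cells were sorted into SmartSeq lysis buffer, and libraries were prepared with Nextera XT and sequenced on a NextSeq500. In CLC Genomics Workbench 20.0.3, the authors mapped reads on GRCm38.p6 and counted them by gene. The deposited values are TPM, made by the authors for each of 8 libraries. No value is 0, and TPM hold no read totals, so depth per library, counting intervals and the study's own edgeR comparison on TMM-normalized reads could not be had.

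Of the entries, 10238 averaged 1 TPM or more and 2179 did not and were dropped. The log2(TPM + 1) of the kept genes entered limma 3.58.1 (R 4.3.3) with a variance trend and without covariates. P-values were adjusted by Benjamini-Hochberg over all of them, and the call was an adjusted p under 0.05 with a fold change over 1.5. Fold changes are ST2fl/fl minus ST2WT on that log2 scale. The fit was tested on simulated data, and the permutation tests on fixed values with known answers. Replicate numbers were taken as recipients, which the study's design pairs. Deviations from the group mean correlated at 0.118 to 0.352 between equally numbered libraries and at -0.283 to 0.109 between the others.

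The members and gene lists were chosen with earlier results of these data known. Named were all members, the 3 genes of each pathway list with the smallest p and any called, the 5 genes most like the CD3 chains, and the most abundant gene of each marker list. *Eomes*, on the NK cell list, stands on 2 lines, which were both summed. The alternatives were other pseudocounts, filters, scalings and variance models, array weights, the recipient as a block, and leaving out each library or recipient. Coordinates are from GENCODE M21 on GRCm38 and promoters from RefSeq. Sequences of proteins were not used here. Figures were drawn with matplotlib 3.10.9 in Python 3.11.15.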

Additional observations from a re-analysis of the deposited data

Results flagged for a closer look

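In groups of 4 libraries, a value was singled out where its gap to the nearest other was over 0.829 of the range of the group (Dixon's test), which chance does in about 1 of 20 groups. Of 34 groups read, over 10 genes and 7 ratios in both genotypes, 5 had such a value, and 4 of these were of the ST2WT library of recipient 2. The ratios are made from the same 10 genes, so the groups are not independent. Those flagged in the ST2WT library of recipient 2 hold *Cd3e* or *Lck*, which were flagged there themselves. *Cd3e* was at 502 TPM in that library, against 386 to 391 TPM in the other ST2WT libraries (gap 0.958 of the range), and *Lck* at 664 TPM, against 508 to 530.2 TPM (0.858). The log2 ratio of *Cd3g* to *Cd3e* was 2.05 there, against 2.44 to 2.50 in the others, and that of *Zap70* to *Lck* was -2.83, against -2.34 to -2.27. The 5th value was in the ST2fl/fl library of recipient 1, where the log2 ratio of *Cd4* to *Cd3e* was -1.27, against -1.517 to -1.502 in the other ST2fl/fl libraries. Without the ST2WT library of recipient 2, the SD of the ST2WT libraries was 2.47 TPM at *Cd3e*, against 56.8 TPM with it, and 11.6 TPM at *Lck*, against 74.1 TPM. Why this library differs was not tested.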

How the results depend on the processing

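Under 23 alternatives, 0 of 10 members and 0 of 69 list genes were called. The log2 fold changes of 9 members stayed positive throughout, and that of *Lck* was between 0.14 and, in the paired fit without recipient 4, -0.0016. The other scalings moved no member across 0 (*Cd3g* 0.31 to 0.35). The number of members past the adjusted p, 1 as reported, was 0 without a variance trend, 4 with array weights (*Cd3g*, *Cd3d*, *Cd3e* and *Cd4*), 2 with the replicate block, 0 to 3 on leaving out 1 library, and 0, 4, 0 and 0 in the paired fit without recipients 1, 2, 3 and 4. Over all genes, those past the adjusted p alone, in either direction, changed as well. There were 62 as reported, 52 without a variance trend, 357 with array weights and 142 with the replicate block. Leaving out 1 library gave 24 to 240, and the paired fit without recipients 1, 2, 3 and 4 gave 15, 417, 40 and 16. With the fold limit added, 53 of all genes were called, 32 with a pseudocount of 5, 130 with array weights and 95 with the replicate block. Such calls were 23 to 104 on leaving out 1 library, and 15, 118 and 16 in the paired fit without recipients 1, 2 and 4. The block made no member's call on both limits. Leaving out 1 library at a time, the difference in the *Trbc1* share ran from -0.68 to 0.93 percentage points, and those in the log2 ratios of *Cd3d*, *Cd3g* and *Cd4* to *Cd3e* from -0.14 to 0.041, -0.032 to 0.12 and -0.032 to 0.25, so their signs are not fixed. As paired differences with sign flips, where the smallest p is 0.125, all 7 ratios had an adjusted p of 0.875. TPM hold no depth, so how far counting error limits the lower members (*Cd247*, *Zap70*, *Cd4*) is unknown. The adjusted p of *Cd3g* ranged from 0.000921 to 0.167.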
